A study of Mus musculus with 18 samples.

Results

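Non-cytochrome enzymes of the AHR gene battery were followed in 18 mouse livers: Nqo1, Htatip2, Ugdh, Gsta1 and Xdh. They were chosen by name as known or proposed targets of AHR, the aryl hydrocarbon receptor, and are 5 of the 55536 genes counted. All 5 passed the filter on low counts, so all 5 were tested. The livers came from female C57BL/6 mice that received 100 µg/kg TCDD, a dioxin that activates AHR, or peanut oil as vehicle, by gavage. Doses were given every 4 days and the livers were taken after 92 days. AhRΔHep mice (dHep here, AHR deleted in hepatocytes), AhRΔHSC mice (dHSC, AHR deleted in hepatic stellate cells) and AhRfl/fl mice (WT here, as in the labels, carrying the floxed gene) each formed 3 TCDD and 3 vehicle livers. The labels do not give the Cre driver of either deletion or the deleted part of Ahr. Each library is poly-T selected mRNA of whole liver from 1 mouse and is named by its mouse number. In such tissue, fewer cells of a type and less RNA per cell cannot be told apart.

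AHR is a transcription factor that a ligand such as TCDD brings into the nucleus, where it pairs with ARNT and binds DNA at sites with the core GCGTG. Its best-known targets are the Cyp1 cytochromes, which oxidise the ligand or its relatives. The battery also holds enzymes that reduce, conjugate or otherwise handle the products, and several of these also carry antioxidant response elements, sites of the stress factor NRF2 with the core TGACNNNGC.

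The starts of the genes were searched for both cores, since these are the letters through which AHR and NRF2 act. RefSeq windows on GRCm38.p6, from 250 bases before to 50 bases after a start site, were at hand for 4 of the 5 genes: Nqo1 (chr8:107403156-107403455, minus strand), Ugdh (chr5:65435793-65436092, minus strand), Htatip2 (chr7:49758856-49759155, plus strand, for the first of its windows) and Gsta1 (chr9:78230419-78230718, plus strand). Each is printed 5′ to 3′ on the strand of its gene, with matches to either core on either strand in capitals. A GCGTG on the other strand reads CACGC.
Nqo1: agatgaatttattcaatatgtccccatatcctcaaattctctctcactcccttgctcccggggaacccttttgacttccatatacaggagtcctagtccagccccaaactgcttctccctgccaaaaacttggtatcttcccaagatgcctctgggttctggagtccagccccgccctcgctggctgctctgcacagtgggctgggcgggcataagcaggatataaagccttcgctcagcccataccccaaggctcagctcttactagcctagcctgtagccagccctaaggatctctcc
Ugdh: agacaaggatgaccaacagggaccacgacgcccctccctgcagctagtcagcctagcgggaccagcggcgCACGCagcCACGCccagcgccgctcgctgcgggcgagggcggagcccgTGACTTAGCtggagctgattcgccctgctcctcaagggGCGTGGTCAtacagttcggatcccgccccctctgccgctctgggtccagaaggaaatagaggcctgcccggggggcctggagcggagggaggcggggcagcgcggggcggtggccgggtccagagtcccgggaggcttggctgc
Htatip2: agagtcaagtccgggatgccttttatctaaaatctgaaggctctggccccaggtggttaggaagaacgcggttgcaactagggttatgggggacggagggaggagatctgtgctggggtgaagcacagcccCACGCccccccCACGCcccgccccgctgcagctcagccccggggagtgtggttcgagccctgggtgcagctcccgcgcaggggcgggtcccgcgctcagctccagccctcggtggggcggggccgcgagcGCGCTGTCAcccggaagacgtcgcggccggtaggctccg
Gsta1: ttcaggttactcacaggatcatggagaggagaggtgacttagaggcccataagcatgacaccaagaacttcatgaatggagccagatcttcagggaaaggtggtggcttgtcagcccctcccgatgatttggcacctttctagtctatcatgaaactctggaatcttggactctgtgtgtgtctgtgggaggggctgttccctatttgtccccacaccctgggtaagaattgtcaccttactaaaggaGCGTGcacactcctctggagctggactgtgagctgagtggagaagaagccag
The window of Nqo1 held no match to GCGTG or to TGACNNNGC. Bases further from the start were not searched, so this does not show that Nqo1 lacks such sites. Ugdh held 3 matches to GCGTG, the last of which overlaps the second of its 2 matches to TGACNNNGC. Htatip2 held 2 matches to GCGTG and 1 to TGACNNNGC, and a further window of Htatip2 held 0 of GCGTG and 1 of TGACNNNGC. Gsta1 held 1 match to GCGTG, starting 2 bases before the start site of its RefSeq window, and 0 to TGACNNNGC. The gene span given below comes from another annotation and begins at 78230656, ahead of this match. Of all 32841 windows of this length, 32.4% held a GCGTG and 12.4% a TGACNNNGC, so a match describes these letters and does not mark a bound site.

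Gsta1 lies on chromosome 9 beside near copies of itself, and their starts are printed because the counts of such copies can mix. The stretches cover 40 bases at chr9:78230654-78230693 (Gsta1), chr9:78257127-78257166 (Gm3776), chr9:78289926-78289965 (Gm10639), all on the plus strand, and chr9:78347126-78347165 (Gsta2, minus strand). Capitals mark GCGTG.
Gsta1: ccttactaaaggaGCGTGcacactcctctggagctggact
Gm3776: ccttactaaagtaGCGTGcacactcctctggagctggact
Gm10639: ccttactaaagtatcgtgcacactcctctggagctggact
Gsta2: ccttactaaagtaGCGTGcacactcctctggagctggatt
Counted from 1 at the 5′ end of the stretch, with the base of Gsta1 first, Gm3776 differed by G12T, Gm10639 by G12T and G14T, and Gsta2 by G12T and C39T. The change G14T leaves the stretch of Gm10639 without the core that the other 3 stretches hold. No search beyond these 40 bases is given for the copies, so this does not show that Gm10639 lacks such sites.

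Total counts ran from 12706490 to 27240877 a library. A set of 5 libraries stood apart from the other 13, namely replicates 16 (dHep TCDD), 9 and 15 (dHep vehicle), 18 (dHSC TCDD) and 17 (dHSC vehicle). No WT library is among these 5, so comparisons of dHep or dHSC with WT also compare unequal shares of such libraries. In these, 2.20% to 4.25% of counts lay outside protein-coding genes, against at most 1.76% in the others. In dHSC TCDD replicate 18, 28.4% of counts were mitochondrial. All 8 hepatocyte markers were detected and tested. Ahr ranged from 23.2 to 94.9 CPM (counts scaled to a common library size with TMM factors) over the 18 libraries and was called in none of the 10 comparisons. Without the position of the deleted part, its level does not check the labels.

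Levels of each gene were compared between groups in 1 model across all 14835 genes that passed the filter, and the text calls a gene where the adjusted p is under 0.05 (edgeR's quasi-likelihood test, Benjamini-Hochberg over all genes tested). In dHep livers 0 of the 5 genes were called with TCDD, and 0.027% of all genes were called higher there. In dHSC livers 2 of the 5 were called higher with TCDD (Nqo1 and Htatip2), where 1.71% of all genes were. In WT livers 4 of the 5 were called higher (all but Xdh), where 3.43% of all genes were. The median log2 difference of the 5 genes was 0.43 in dHep, 1.53 in dHSC and 2.52 in WT livers, beside medians over all genes of -0.01, -0.00 and -0.02. The 0 in dHep stands beside 1 gene (Gsta1) at an unadjusted p under 0.05, where 994 of all genes had one, and DESeq2 also called 0 of the 5 there.

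**Figure D1:**
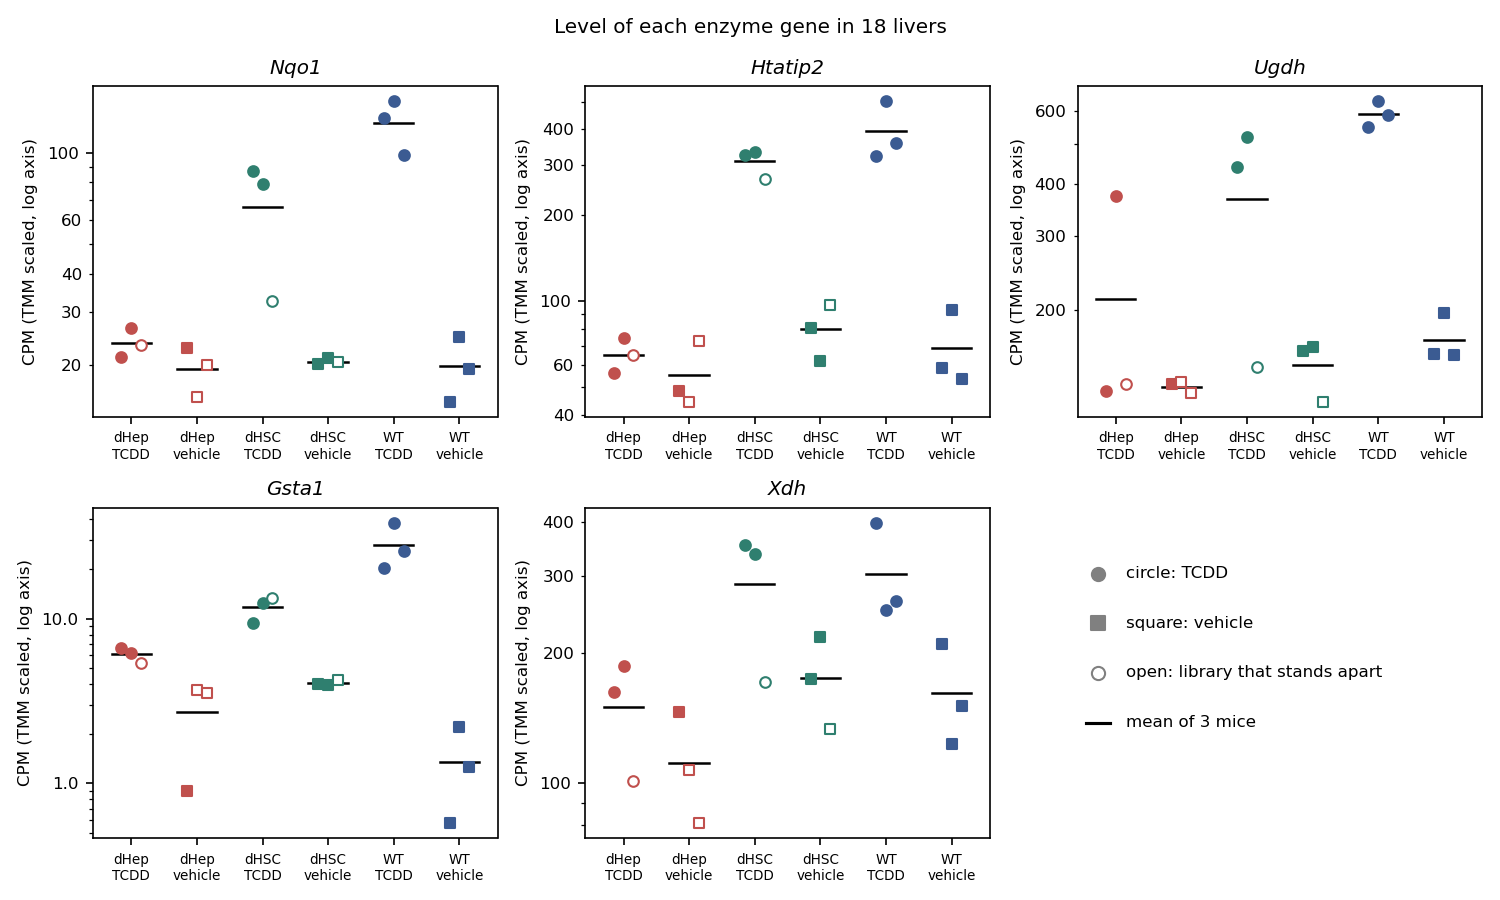
Level of each gene in CPM (log axis) in every library, by group, with circles for TCDD, squares for vehicle, open symbols for the 5 libraries that stand apart and a line at the mean of 3 mice. Nqo1 and Htatip2 sit high in WT and dHSC TCDD livers and near their vehicle level in dHep TCDD livers.

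Nqo1, NAD(P)H quinone dehydrogenase 1 (ENSMUSG00000003849, GRCm38 chr8:107388225-107403206, minus strand), reduces quinones in a single step that bypasses the reactive semiquinone. In dHep livers it had 21.3, 26.4 and 23.2 CPM in TCDD replicates 4, 10 and 16, against 22.8, 15.6 and 20.0 CPM in vehicle replicates 3, 9 and 15. In dHSC livers it had 87.4, 79.3 and 32.5 CPM in TCDD replicates 6, 12 and 18, against 20.1, 21.1 and 20.4 CPM in vehicle replicates 5, 11 and 17. In WT livers it had 131, 148 and 98.6 CPM in TCDD replicates 2, 8 and 14, against 15.1, 24.8 and 19.5 CPM in vehicle replicates 1, 7 and 13. The dHep groups overlap, while every TCDD library of dHSC and of WT lies above its vehicle libraries, with dHSC replicate 18 the lowest of these TCDD libraries. The mean was 125.8 ± 25.3 CPM in WT TCDD and 19.8 ± 4.83 CPM in WT vehicle livers (SD, n = 3 each). The log2 difference was 0.28 ± 0.31 (SE, adjusted p = 0.909) in dHep, 1.69 ± 0.32 (adjusted p = 0.00786) in dHSC and 2.67 ± 0.33 (adjusted p = 0.000156) in WT livers, by edgeR. In WT that is 6.36-fold. The dHSC call was lost when only the dHSC libraries were fitted (adjusted p = 0.132).

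Htatip2 (ENSMUSG00000039745, GRCm38 chr7:49759115-49773975, plus strand), also called TIP30, encodes a protein of the short-chain dehydrogenase/reductase fold that is known as a metastasis suppressor. In dHep livers it had 56.0, 74.2 and 65.0 CPM in TCDD replicates 4, 10 and 16, against 48.4, 44.5 and 72.8 CPM in vehicle replicates 3, 9 and 15. In dHSC livers it had 325, 333 and 269 CPM in TCDD replicates 6, 12 and 18, against 80.7, 62.0 and 97.1 CPM in vehicle replicates 5, 11 and 17. In WT livers it had 322, 502 and 357 CPM in TCDD replicates 2, 8 and 14, against 58.6, 93.0 and 53.7 CPM in vehicle replicates 1, 7 and 13. All TCDD libraries of dHSC and WT lie far above all 12 other libraries, and the TCDD libraries of these genotypes overlap each other. The log2 difference was 0.24 ± 0.28 (SE, adjusted p = 0.915) in dHep, 1.95 ± 0.29 (adjusted p = 0.00172) in dHSC and 2.52 ± 0.30 (adjusted p = 0.000122) in WT livers, by edgeR. Among the 5 genes it had the highest level per kilobase of exon in WT TCDD livers, 195 ± 47.3 CPM per kilobase, against 33.8 ± 10.6 in WT vehicle livers.

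Ugdh, UDP-glucose 6-dehydrogenase (ENSMUSG00000029201, GRCm38 chr5:65413221-65435949, minus strand), makes UDP-glucuronic acid, the sugar donor of glucuronidation and of hyaluronan. In dHep livers it had 128, 375 and 133 CPM in TCDD replicates 4, 10 and 16, against 133, 134 and 126 CPM in vehicle replicates 3, 9 and 15. In dHSC livers it had 439, 519 and 146 CPM in TCDD replicates 6, 12 and 18, against 159, 163 and 120.4 CPM in vehicle replicates 5, 11 and 17. In WT livers it had 549, 632 and 586 CPM in TCDD replicates 2, 8 and 14, against 157, 197 and 156 CPM in vehicle replicates 1, 7 and 13. The WT TCDD libraries lie above all 15 others. In dHep only replicate 10, and in dHSC only replicates 6 and 12, lie above the vehicle libraries of their genotype.

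The log2 difference of Ugdh was 0.69 ± 0.43 (SE, adjusted p = 0.797) in dHep, 1.32 ± 0.43 (adjusted p = 0.145) in dHSC and 1.80 ± 0.44 (adjusted p = 0.0220) in WT livers, by edgeR. The WT call was lost without any 1 of WT TCDD replicates 2, 8 and 14 or WT vehicle replicates 1, 7 and 13, with log2 differences of 1.74 to 1.92 and adjusted p of 0.0592 to 0.0981. Without dHSC TCDD replicate 18 the dHSC difference was 1.70 and was called (adjusted p = 0.0262). Without dHep TCDD replicate 10 the dHep difference was -0.00. Other genes, Gm43552 and Gm43289, lie over 558 of the 6752 exon bases of Ugdh, 8.3%, on the same strand. How reads over both were counted is not given in the sources used here.

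Gsta1, an alpha-class glutathione transferase (ENSMUSG00000074183, GRCm38 chr9:78230656-78242684, plus strand), couples glutathione to reactive compounds. In dHep livers it had 6.66, 6.15 and 5.38 CPM in TCDD replicates 4, 10 and 16, against 0.899, 3.69 and 3.55 CPM in vehicle replicates 3, 9 and 15. In dHSC livers it had 9.44, 12.5 and 13.4 CPM in TCDD replicates 6, 12 and 18, against 4.03, 3.98 and 4.22 CPM in vehicle replicates 5, 11 and 17. In WT livers it had 20.1, 38.3 and 25.5 CPM in TCDD replicates 2, 8 and 14, against 0.573, 2.19 and 1.26 CPM in vehicle replicates 1, 7 and 13. Every TCDD library lies above every vehicle library of its genotype, and the WT TCDD libraries lie above all 15 others. The log2 difference was 1.18 ± 0.47 (SE, adjusted p = 0.661) in dHep, 1.53 ± 0.47 (adjusted p = 0.116) in dHSC and 4.38 ± 0.53 (adjusted p = 0.000144) in WT livers, by edgeR. In WT that is 20.8-fold, from 1730 counts in the 3 TCDD libraries and 71 in the 3 vehicle libraries. The dHSC difference was called by DESeq2 (adjusted p = 0.0343) and in a fit with the non-coding share of each library as a covariate (adjusted p = 0.0449).

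The counts of Gsta1 are uncertain because of the near copies. Of the 100-base windows of its transcript sequence, 71.3% also occur in Gm3776 and 81.8% in at least 1 of the other 3 copies. How reads that fit several places were counted is not given in the sources used here, so its level per length is not given. Gm3776 had 3.16, 2.26 and 2.18 CPM in dHep TCDD replicates 4, 10 and 16, against 0.674, 1.07 and 1.28 CPM in dHep vehicle replicates 3, 9 and 15. It had 4.57, 5.29 and 12.6 CPM in dHSC TCDD replicates 6, 12 and 18, against 0.634, 0.368 and 3.80 CPM in dHSC vehicle replicates 5, 11 and 17. It had 7.60, 17.7 and 12.2 CPM in WT TCDD replicates 2, 8 and 14, against 0.344, 0.504 and 0.287 CPM in WT vehicle replicates 1, 7 and 13. Its TCDD libraries lie above the vehicle libraries of the same genotype in all 3 genotypes. The WT difference was called at a log2 difference of 5.02 ± 0.77 (edgeR, adjusted p = 0.000887), and those of dHep (1.34) and dHSC (2.23) were not. Gm10639, the copy whose 40-base stretch lacks GCGTG, was at low counts throughout. It had 0.519, 1.95 and 0.408 CPM in dHep TCDD replicates 4, 10 and 16, against 0.150, 0.119 and 0.0755 CPM in dHep vehicle replicates 3, 9 and 15. It had 0.443, 0.395 and 0.143 CPM in dHSC TCDD replicates 6, 12 and 18, against 0.226, 0.368 and 0.281 CPM in dHSC vehicle replicates 5, 11 and 17. It had 0.641, 0.683 and 0.827 CPM in WT TCDD replicates 2, 8 and 14, against 0, 0.112 and 0.230 CPM in WT vehicle replicates 1, 7 and 13. Its TCDD libraries lie above the vehicle libraries in dHep and WT and overlap them in dHSC. Its counts over 3 libraries were 49 in dHep TCDD and 7 in dHep vehicle livers, and 46 in WT TCDD and 6 in WT vehicle livers. Its log2 difference was 2.93 ± 0.81 in dHep (SE, edgeR, adjusted p = 0.389), 0.19 ± 0.78 in dHSC (adjusted p = 0.990) and 2.59 ± 0.82 in WT livers (adjusted p = 0.0800), and none was called. Gsta2, whose stretch holds GCGTG, had 0.59 ± 0.37 in dHep, -0.16 ± 0.37 in dHSC and 0.43 ± 0.37 in WT livers. Gsta2 was far more abundant, at 113 ± 32.5 CPM in WT TCDD and 83.7 ± 31.6 CPM in WT vehicle livers (SD, n = 3 each), and was not called. When Gsta1 was summed with all 3 copies, the WT difference was 0.85 and was not called (edgeR, adjusted p = 0.175), and the sum is mostly Gsta2.

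**Figure D2:**
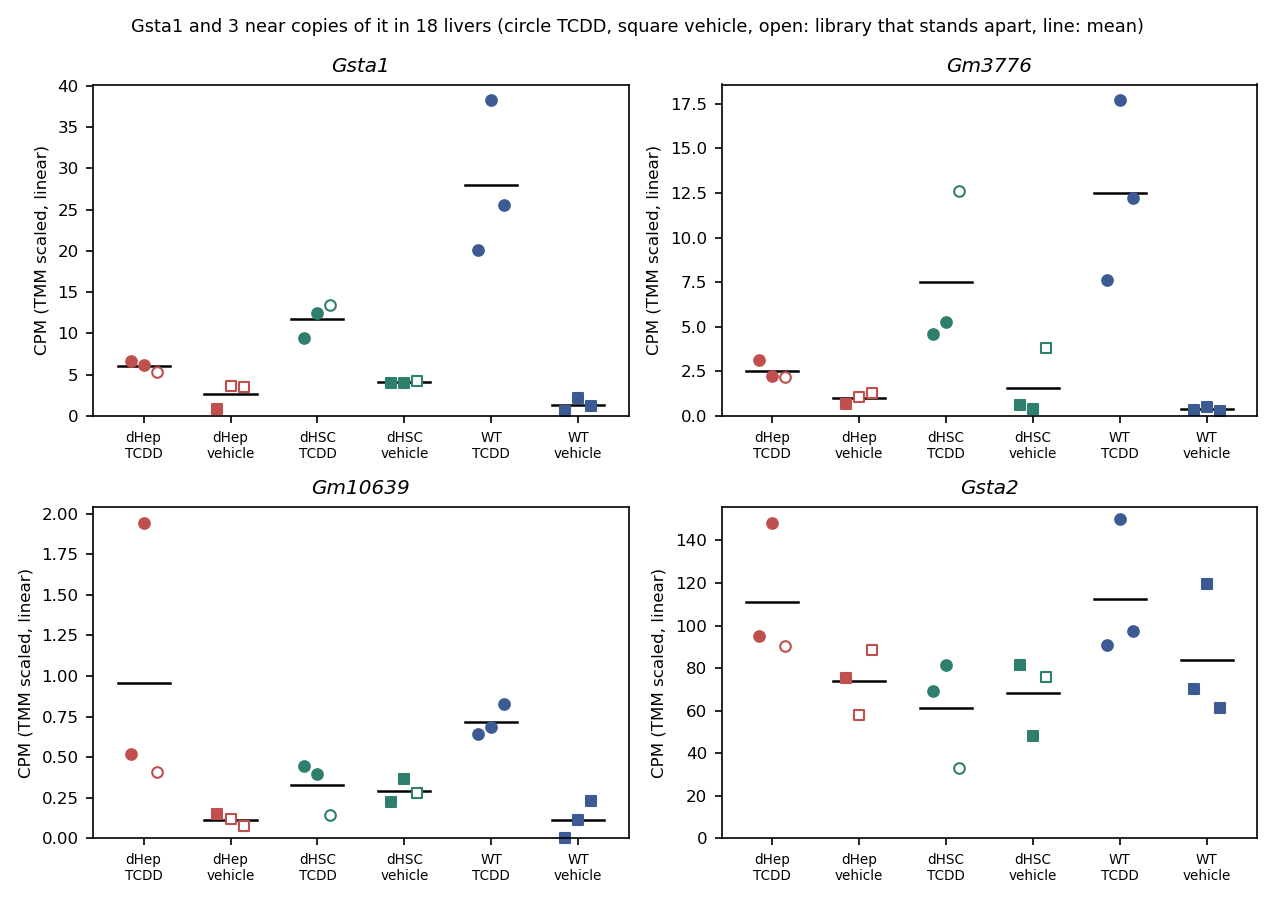
CPM (linear axes from 0) of Gsta1 and of its near copies Gm3776, Gm10639 and Gsta2 in every library, with circles for TCDD, squares for vehicle, open symbols for the 5 libraries that stand apart and a line at the mean of 3 mice. Gsta1 and Gm3776 have their highest means in WT TCDD livers. For Gm3776, dHSC TCDD replicate 18 (12.6 CPM) lies above WT TCDD replicates 2 (7.60 CPM) and 14 (12.2 CPM). Gsta2 overlaps between TCDD and vehicle in each genotype except dHep, where its TCDD libraries, from 90.2 CPM, lie above its vehicle libraries, up to 88.7 CPM.

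Xdh, xanthine dehydrogenase (ENSMUSG00000024066, GRCm38 chr17:73883895-73950196, minus strand), carries out the last steps of purine breakdown to uric acid and can pass electrons to oxygen. In dHep livers it had 162, 186 and 101 CPM in TCDD replicates 4, 10 and 16, against 146, 107 and 80.8 CPM in vehicle replicates 3, 9 and 15. In dHSC livers it had 354, 338 and 171 CPM in TCDD replicates 6, 12 and 18, against 174, 218 and 133 CPM in vehicle replicates 5, 11 and 17. In WT livers it had 399, 250.4 and 263 CPM in TCDD replicates 2, 8 and 14, against 209.7, 123 and 151 CPM in vehicle replicates 1, 7 and 13. The groups overlap in dHep and dHSC, and all 3 WT TCDD libraries lie above the WT vehicle libraries. The log2 difference was 0.43 ± 0.35 (SE, adjusted p = 0.862) in dHep, 0.72 ± 0.35 (adjusted p = 0.435) in dHSC and 0.92 ± 0.35 (adjusted p = 0.167) in WT livers, by edgeR. The WT difference was called without the 5 libraries that stand apart (log2 difference 0.92, adjusted p = 0.0387). It was also called in the fit with the non-coding share as a covariate (0.97, adjusted p = 0.0133). The pseudogene CT025731.2 lies in an intron of Xdh and covers 0 of its exon bases.

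Read across the genes, all 3 TCDD libraries lay above all 3 vehicle libraries for 1 of the 5 genes in dHep (Gsta1), 3 in dHSC (Nqo1, Htatip2 and Gsta1) and 5 in WT livers. The same held for 4.56% of all genes tested in dHep, 9.61% in dHSC and 13.4% in WT livers.

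**Figure D3:**
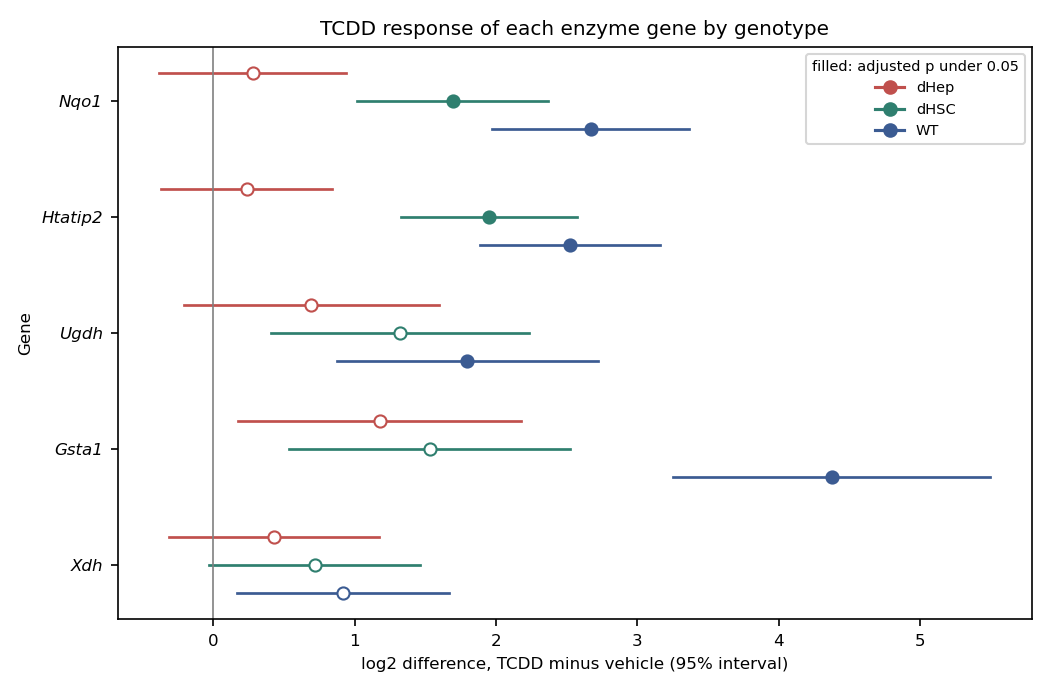
Log2 difference between TCDD and vehicle livers (x axis) for each gene and genotype, with the 95% interval of the fit across all genes and filled points where the adjusted p is under 0.05. The WT points lie right of the dHSC points and these right of the dHep points for each gene, and the dHep intervals of Nqo1, Htatip2, Ugdh and Xdh include 0.

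Whether AHR in hepatocytes or in stellate cells bears on the response was asked by comparing the TCDD responses between genotypes. The response in dHep livers was called lower than in WT livers for 3 of the 5 genes, where 0.506% of all genes were called lower. The difference was -2.39 ± 0.45 for Nqo1 (SE on the log2 scale, edgeR, adjusted p = 0.0170), -2.29 ± 0.41 for Htatip2 (adjusted p = 0.0131) and -3.20 ± 0.68 for Gsta1 (adjusted p = 0.0350). It was -1.10 for Ugdh (95% interval -2.37 to 0.17) and -0.49 for Xdh (95% interval -1.54 to 0.56), and neither was called. The Nqo1 call was lost without WT TCDD replicate 2 or 8, dHep TCDD replicate 4 or WT vehicle replicate 13 (adjusted p up to 0.0621). That of Htatip2 was lost without WT vehicle replicate 13 (adjusted p = 0.0542), and without all 5 libraries that stand apart (-2.10, adjusted p = 0.128).

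The Gsta1 call in that comparison was lost without any 1 of 10 of the 12 libraries, with adjusted p up to 0.116. These were WT TCDD replicates 2, 8 and 14, WT vehicle replicates 1 and 13, dHep TCDD replicates 4, 10 and 16, and dHep vehicle replicates 9 and 15. Without the 5 libraries that stand apart its difference was -1.55 and was not called (adjusted p = 0.750). That set leaves dHep vehicle with replicate 3 alone, whose Gsta1 level of 0.899 CPM is the lowest of its group. The lone library is then assumed to vary like the other groups. Summed with the near copies, the difference of Gsta1 was -0.21 (adjusted p = 0.919). Taken by treatment, Gsta1 in dHep against WT was 0.99 in vehicle livers, which was not called, and -2.20 in TCDD livers.

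In dHSC livers the response was called different from that in WT for 0 of the 5 genes, and for 0 (0%) of all genes, by edgeR. At an unadjusted p under 0.05 there were 2 of the 5 genes and 233 of all, and DESeq2 called 0 of the 5 and 3 of all. Gsta1 had a difference of -2.84 ± 0.67 (SE, 95% interval -4.26 to -1.43), the 4th smallest p of all genes, and an adjusted p of 0.999996. Part of it lies in the vehicle livers: dHSC against WT was 1.60 there and -1.25 in TCDD livers. WT vehicle livers held only 71 counts of Gsta1 over 3 libraries. The intervals were -1.91 to -0.04 for Nqo1, -1.43 to 0.28 for Htatip2, -1.75 to 0.79 for Ugdh and -1.25 to 0.85 for Xdh, so differences of over 1 on the log2 scale lie within them.

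The dHep and dHSC responses were also compared directly. In that comparison 0 of the 5 genes were called, where 0.431% of all genes were called in either direction. At an unadjusted p under 0.05 there were 2 of the 5 and 1371 of all genes, and DESeq2 called 1 of the 5. The share of all genes that DESeq2 called is not given here. The difference of dHep minus dHSC was -1.71 ± 0.40 for Htatip2 (SE, edgeR, adjusted p = 0.0886), which DESeq2 called (-1.72, adjusted p = 0.00457). It was -1.41 ± 0.44 for Nqo1 (edgeR, adjusted p = 0.289), called without dHSC TCDD replicate 18 (-1.74, adjusted p = 0.0412). It was -0.63 for Ugdh, -0.35 for Gsta1 and -0.29 for Xdh, each with an interval that includes 0. These comparisons share the dHep, dHSC and WT libraries in pairs and are not independent of each other.

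**Figure D4:**
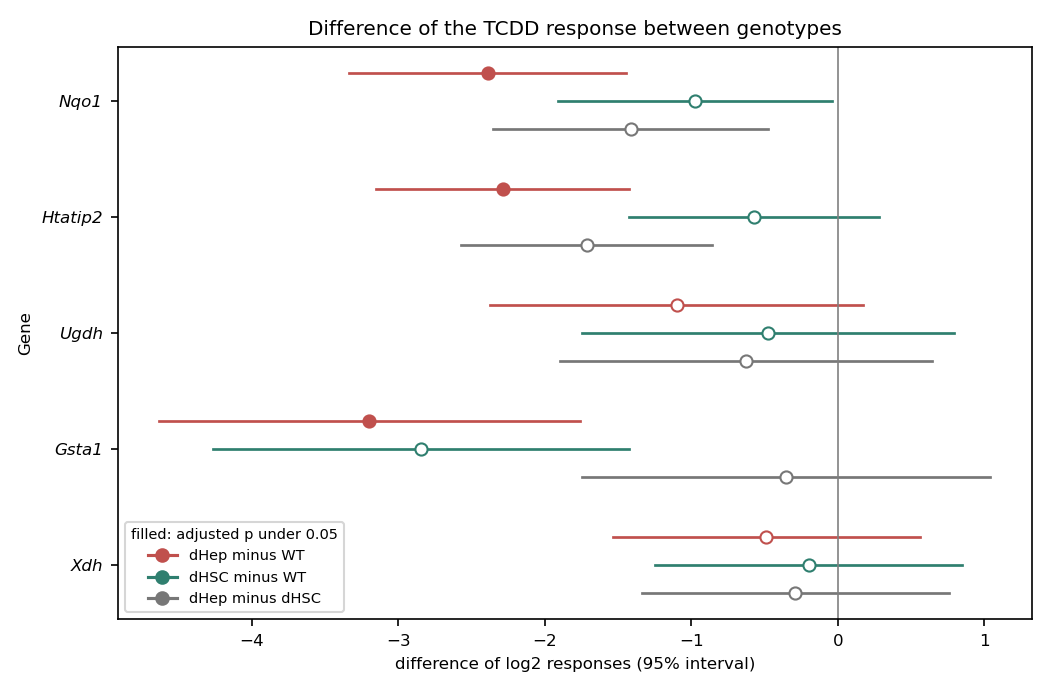
Difference of the log2 TCDD response between genotypes (x axis) for each gene, with the 95% interval and filled points where the adjusted p is under 0.05. The filled points are Nqo1, Htatip2 and Gsta1 for dHep minus WT, and each dHSC minus WT point is open.

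Under TCDD alone, dHep livers were called lower than WT livers for 3 of the 5 genes, where 1.12% of all genes were called lower. All 5 had an unadjusted p under 0.05, as did 1459 of all genes, and DESeq2 called 4 of the 5. The 1.12% is the share called by edgeR, and that of DESeq2 is not given here. The log2 difference of dHep to WT was -2.41 ± 0.33 for Nqo1 (SE, edgeR, adjusted p = 0.000756), -2.60 ± 0.30 for Htatip2 (adjusted p = 0.000216) and -2.20 ± 0.47 for Gsta1 (adjusted p = 0.0205). For Ugdh it was -1.48 (adjusted p = 0.114) and for Xdh -1.02 (adjusted p = 0.226). All 3 dHep TCDD libraries lay below all 3 WT TCDD libraries for all 5 genes, as they did for 9.68% of all genes tested. The Gsta1 call was lost without WT TCDD replicate 8 or 14 or any 1 of dHep TCDD replicates 4, 10 and 16 (adjusted p up to 0.103). Ugdh was called without dHep TCDD replicate 10 (-2.18, adjusted p = 0.0204) and by DESeq2 (-1.46, adjusted p = 0.0234).

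Between dHSC and WT livers under TCDD, 0 of the 5 genes and 0% of all genes were called by edgeR. At an unadjusted p under 0.05 there were 2 of the 5 (Nqo1 and Gsta1) and 539 of all, and DESeq2 called 0 of the 5 and 21 of all. All 3 dHSC TCDD libraries lay below the WT TCDD libraries for 3 of the 5 genes, Nqo1, Ugdh and Gsta1, as they did for 4.38% of all genes. The log2 difference was -0.92 for Nqo1 and -1.25 for Gsta1.

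In vehicle livers no gene was called between dHep and WT or between dHSC and WT, 0% of all genes in both comparisons by edgeR. For dHep against WT there were 0 of the 5 and 1025 of all genes at an unadjusted p under 0.05, and DESeq2 called 0 of the 5 and 5 of all. For dHSC against WT there were 1 of the 5 and 220 of all at an unadjusted p under 0.05, and DESeq2 called 0 of the 5 and 2 of all. Gsta1 had 4.08 ± 0.128 CPM in dHSC vehicle and 1.34 ± 0.809 CPM in WT vehicle livers (SD, n = 3 each), a log2 difference of 1.60 ± 0.49 (SE). Its 3 dHSC vehicle libraries lay above the WT ones, as did those of 2.24% of all genes. Ugdh had 131 ± 4.24 CPM in dHep vehicle and 169.6 ± 23.4 CPM in WT vehicle livers, and its dHep libraries lay below the WT ones, as did those of 3.26% of all genes. The vehicle means of Nqo1 spanned only 19.5 to 20.5 CPM over the 3 genotypes.

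Ordered by mean over the 6 groups, WT TCDD came first for each of the 5 genes and dHSC TCDD second. For Htatip2 and Xdh the libraries of these groups overlap, while for Nqo1, Ugdh and Gsta1 they do not. The libraries of the second place overlap those of the third for Ugdh and Xdh. The third place was dHep TCDD for Nqo1, Ugdh and Gsta1 and dHSC vehicle for Htatip2 and Xdh, and the last place was dHep vehicle except for Gsta1, where it was WT vehicle. From the third place down each neighbour overlaps the next, except that dHep TCDD lies above dHSC vehicle for Nqo1 and Gsta1 and dHSC vehicle above dHep vehicle for Gsta1. In dHSC TCDD livers replicate 18, the library with the high mitochondrial share, was the lowest of its group for Nqo1, Htatip2, Ugdh and Xdh and the highest for Gsta1.

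Other genes of the same pathways were counted from 7 lists. Beside these counts, edgeR called 0.027% of all genes higher with TCDD in dHep, 1.71% in dHSC and 3.43% in WT livers. It called 0.0404%, 0.843% and 1.95% lower, in that order. Shares of all genes called by DESeq2 are not given here. An unadjusted p under 0.05 was held by 994 of all 14835 genes in dHep, 1816 in dHSC and 2484 in WT livers. Of 10 tested targets of AHR outside the 5 genes, 0 were called higher with TCDD in dHep, 5 in dHSC and 7 in WT livers. In dHep 5 of them had an unadjusted p under 0.05 and DESeq2 called 2. DESeq2 called 7 of them higher in dHSC and 8 in WT livers. The median log2 differences of these 10 were 0.80 in dHep, 3.10 in dHSC and 2.86 in WT livers. The higher median in dHSC than in WT rests on Aldh3a1, named after its values were seen. It had 3.34 ± 1.71 in dHSC and -0.96 ± 1.29 in WT livers (SE, edgeR), and neither was called. Each other gene of the 10 had a lower value in dHSC than in WT livers, such as Cyp1b1 with 8.36 and 9.19. Cyp1a1, the cytochrome that defines the battery, had 307 ± 25.4 CPM in dHep TCDD and 63.9 ± 33.2 CPM in dHep vehicle livers, and 6430.2 ± 1689.8 CPM in WT TCDD and 15.4 ± 15.5 CPM in WT vehicle livers (SD, n = 3 each). In WT livers Ahrr, the AHR repressor, had a log2 difference of 8.03 ± 0.64 (SE, edgeR, adjusted p = 4.52e-06). Between dHep and WT the response of 5 of the 10 was called lower, where 0.506% of all genes were. These include Cyp1b1 (-6.33 ± 0.82, adjusted p = 0.00156) and Tiparp (-2.67 ± 0.48, adjusted p = 0.0131). Part of the Cyp1b1 value lies in the vehicle livers, where dHep against WT was 2.52 for Cyp1b1 and 2.65 for Ahrr. DESeq2 called both of these higher, and edgeR called neither. In TCDD livers dHep against WT was -3.80 for Cyp1b1 and -2.86 for Tiparp.

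Of 16 tested NRF2 targets, edgeR called 3 higher with TCDD in WT livers and 0 in dHep or dHSC livers. In dHep 1 had an unadjusted p under 0.05 and DESeq2 called 0, and in dHSC 3 had one and DESeq2 called 2. In WT livers 6 had one and DESeq2 called 5 higher. The 3 that edgeR called in WT livers were Srxn1 (log2 difference 1.84 ± 0.33), which repairs peroxiredoxins, the exporter gene Abcc4 (2.16 ± 0.41) and Hmox1 (1.502 ± 0.39), which breaks down haem. The median of the 16 was 0.32 in dHep, 0.24 in dHSC and 0.70 in WT livers. Nfe2l2, which encodes NRF2 and was named after its values were seen, was called in WT livers (1.53 ± 0.28, edgeR, adjusted p = 0.00411). Of 11 tested quinone and carbonyl reductases other than Nqo1, 2 were called higher in WT livers, Cbr3 (3.49 ± 0.66) and Cbr1 (1.55 ± 0.41). DESeq2 called the same 2 higher there, and 1 lower. In dHep livers 0 were called by edgeR or DESeq2 and 0 had an unadjusted p under 0.05, and in dHSC livers edgeR called 0, DESeq2 called 1 and 2 had such a p. The median of these 11 was 0.32 in dHep, -0.20 in dHSC and 0.12 in WT livers.

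Around Ugdh, 1 of 10 tested genes of UDP-sugar supply was called with TCDD in dHSC livers, 1 in WT livers and 0 in dHep livers (0 there by DESeq2 and 0 at an unadjusted p under 0.05). In dHSC and WT it was Slc35d1, the carrier that takes UDP-glucuronic acid into the endoplasmic reticulum. DESeq2 called 1 of the 10 higher in dHSC and 2 in WT livers, Slc35d1 among them in both. Slc35d1 averaged 133 ± 38.6 CPM in dHep TCDD and 133 ± 30.9 CPM in dHep vehicle livers, 280.1 ± 75.8 CPM in dHSC TCDD and 128 ± 10.4 CPM in dHSC vehicle livers, and 333 ± 29.6 CPM in WT TCDD and 139 ± 29.3 CPM in WT vehicle livers (SD, n = 3 each). Its log2 difference was 1.13 ± 0.28 in dHSC (SE, edgeR, adjusted p = 0.0409) and 1.26 ± 0.28 in WT (adjusted p = 0.0129). Ugp2, which makes the substrate of Ugdh and was named after its values were seen, had -0.88 ± 0.40 in WT (adjusted p = 0.276). The median of the 10 was 0.14 in dHep, -0.26 in dHSC and -0.21 in WT livers.

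Of 9 tested UDP-glucuronosyltransferases, the enzymes that spend the sugar donor, 0 were called higher in any genotype by edgeR or by DESeq2. By edgeR 1, Ugt2b37, was called lower in dHSC (-3.53 ± 0.69, adjusted p = 0.00958) and in WT livers (-2.97 ± 0.66, adjusted p = 0.0139). DESeq2 called Ugt2b37 lower in both. In WT livers DESeq2 also called Ugt2a3 lower, named after its values were seen (-1.25 ± 0.43 by edgeR, not called). Genes of this family are close copies, so their counts may mix. Ugt1a6a and Ugt1a6b, named after their values were seen, are listed at 0 in all 18 libraries, and their spans overlap those of the other Ugt1a genes. The median of the 9 was 0.09 in dHep, -0.30 in dHSC and -0.59 in WT livers.

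Around Gsta1, 3 of 17 tested glutathione transferases were called higher in WT livers: Gm3776, Gstm3 (2.55 ± 0.41) and Gstp1 (1.94 ± 0.40). DESeq2 called 5 higher there. In dHSC livers 1 was called higher, Gstm3 (1.60 ± 0.40, edgeR, adjusted p = 0.0449), while 5 had an unadjusted p under 0.05 and DESeq2 called 3 higher (Gm3776, Gstm3 and Gstp1) and 1 lower (Gstm6, named after its values were seen). In dHep livers 0 were called by edgeR or DESeq2, and 2 had an unadjusted p under 0.05. The median of the 17 was 0.37 in dHep, -0.15 in dHSC and 0.43 in WT livers. Around Xdh, 1 of 14 tested genes of purine breakdown and molybdenum enzymes was called higher in WT livers, Aox1 (1.29 ± 0.32, edgeR, adjusted p = 0.0234), an aldehyde oxidase of the same enzyme family. In dHep livers 0 of the 14 were called by edgeR or DESeq2 and 1 had an unadjusted p under 0.05, while in dHSC livers edgeR called 0, DESeq2 called 2 and 2 had an unadjusted p under 0.05. Aox1 had -0.32 ± 0.31 in dHep and 1.222 ± 0.32 in dHSC livers (edgeR, adjusted p = 0.0536 in dHSC). Uox, urate oxidase, the step after Xdh, named after its values were seen, had -0.13 ± 0.40 in dHep, -0.83 ± 0.40 in dHSC and -1.24 ± 0.40 in WT livers (edgeR, adjusted p = 0.0906 in WT). In WT livers DESeq2 called Uox lower and Aox1 higher. The median of the 14 was -0.15 in dHep, -0.25 in dHSC and -0.24 in WT livers.

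**Figure D5:**
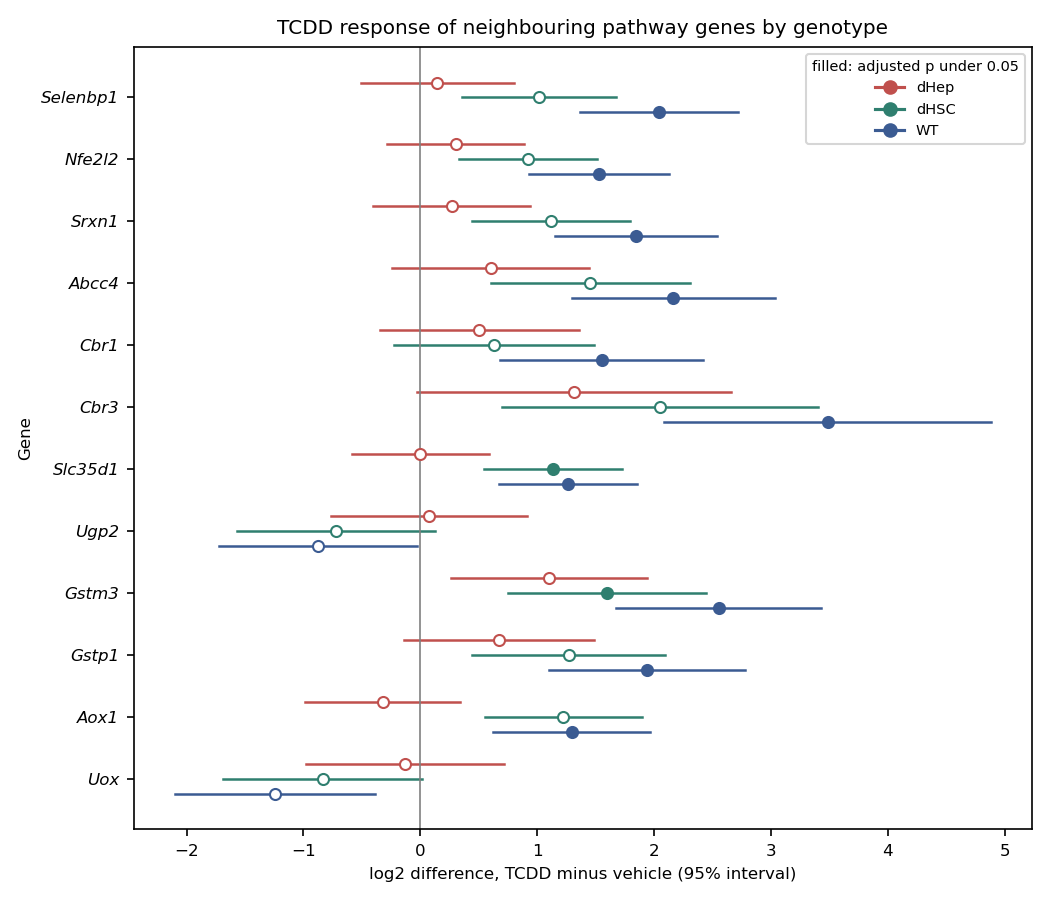
Log2 difference between TCDD and vehicle livers (x axis) of 12 genes from the same pathways in each genotype, with the 95% interval and filled points where the adjusted p is under 0.05. Each of the 12 is open in dHep livers, and in dHSC livers Slc35d1 and Gstm3 are filled. Most of the 12 were named because they were called in WT livers, so the filled WT points follow from that choice. In dHep livers edgeR called 10 of all 14835 genes in either direction. Cyp1b1 and Ahrr, which DESeq2 called higher with TCDD in dHep livers, are not drawn.

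By Pearson r of log2 CPM over the 18 libraries, which share groups and depth, the gene most like Nqo1 among 11797 was Selenbp1 (r = 0.953), followed by Slc35d1 (0.946), Cd163l1 (0.940) and Srxn1 (0.939). For Ugdh these were Nqo1 (0.918), Entpd5 (0.917), Slc35d1 (0.911) and Car2 (0.909). For Htatip2 they were Amn (0.974), Mdfi (0.961), Hmx1 (0.961) and Fbxw9 (0.959). For Gsta1 they were St14 (0.884), Ttc39a (0.879), Gstm3 (0.875) and Bsg (0.874). For Xdh they were Pik3ap1 (0.954), Tbc1d16 (0.946), Lmo7 (0.937) and Nup155 (0.934). Among the 5 genes r ran from 0.517 between Gsta1 and Xdh to 0.932 between Nqo1 and Htatip2. These values describe likeness only and carry no test.

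Markers of other cell types were summed in the same libraries. The summed level of 6 monocyte and scar macrophage markers ran from 57.6 to 97.1 CPM in dHep TCDD and 14.9 to 41.3 CPM in dHep vehicle livers, from 108 to 172 CPM in dHSC TCDD and 13.6 to 21.1 CPM in dHSC vehicle livers, and from 125 to 249 CPM in WT TCDD and 8.97 to 17.7 CPM in WT vehicle livers. The 6 cholangiocyte markers summed to 94.9 to 233 CPM in dHep TCDD and 69.1 to 175 CPM in dHep vehicle livers, 109 to 134 CPM in dHSC TCDD and 37.5 to 89.6 CPM in dHSC vehicle livers, and 178 to 250.5 CPM in WT TCDD and 48.6 to 65.0 CPM in WT vehicle livers. The 8 hepatocyte markers summed to 51415 to 91834 CPM in WT TCDD and 93921 to 158838 CPM in WT vehicle livers, and the TCDD and vehicle ranges overlap in dHep and dHSC. The 8 stellate cell markers overlapped between TCDD and vehicle in each genotype, and Lrat among them was at 0 in all libraries. The neutrophil markers summed to 13.999 to 31.5 CPM in dHep TCDD and 6.70 to 23.6 CPM in dHep vehicle livers, 12.3 to 153 CPM in dHSC TCDD and 3.98 to 10.2 CPM in dHSC vehicle livers, and 72.0 to 93.6 CPM in WT TCDD and 2.41 to 5.63 CPM in WT vehicle livers. The B cell markers, with Ms4a1 at 0, summed to 11.3 to 91.0 CPM in dHSC TCDD and 5.25 to 9.003 CPM in dHSC vehicle livers and to 27.6 to 54.2 CPM in WT TCDD and 4.71 to 10.4 CPM in WT vehicle livers and overlapped in dHep. Kupffer and endothelial cell markers overlapped between TCDD and vehicle in all 3 genotypes, and T and NK cell markers in dHep and dHSC. In WT livers the T and NK cell markers summed to 6.66 to 7.40 CPM with TCDD and 1.40 to 6.66 CPM with vehicle. The part of these cells in the levels of the 5 genes was not tested. WT vehicle replicate 1 held 931 CPM over 6 skeletal muscle markers and the other 17 libraries held up to 2.72 CPM.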

How the data were processed

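Whole-liver mRNA of 18 mice was sequenced, 3 in each of 6 groups. The deposited files hold raw read counts per gene. Per the submitters' processing notes, HTSeq 0.11.3, HISAT2 2.1.0, DESeq2 1.22.2 and FastQC 0.11.9 were used with GRCm38. Counting settings, strand use included, are not given in the sources used here. Identifiers were matched to GENCODE M21, which holds all 55536 of them.

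Counts were fitted with edgeR 4.0.16 (R 4.3.3): TMM scaling, filterByExpr, 6 group means over all 18 libraries, quasi-likelihood tests and Benjamini-Hochberg adjustment over 14835 genes. The fit was tested on simulated data. CPM were computed from the deposited counts after scaling. No mouse number is shared by 2 groups, so the fit has no replicate block. The numbers 1 to 6, 7 to 12 and 13 to 18 each hold 1 mouse of every group, and whether they mark a batch is not given. The p-values measure the spread between these mice.

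The genes, lists, tests and comparisons were chosen with earlier results of these data known. Named besides the 5 genes are up to 4 called members of a list by smallest p, the copies of Gsta1, overlapping genes, Ahr and the 4 genes most like each. Aldh3a1, Nfe2l2, Ugp2, Uox, Gstm6, Ugt2a3, Ugt1a6a and Ugt1a6b fall outside this rule and were named after their values were seen. Alternatives were RLE scaling, other filters, fits of the compared groups only, DESeq2 1.42.0, leaving out each library and summing the Gsta copies. Chosen after seeing the data were leaving out the 5 libraries with over 2% of counts outside protein-coding genes, that share as a covariate, and a block for these 3 runs of 6 mouse numbers. Marker lists cover 10 cell types. Motifs were searched in RefSeq windows of 300 bases.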

Additional observations from a re-analysis of the deposited data

Results flagged for a closer look

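The TCDD response of 3 genes differed between dHep and WT livers by a test of the difference itself (edgeR's quasi-likelihood test of the interaction, adjusted over all genes). For Nqo1 the difference of log2 responses was -2.39, with a response of 0.28 in dHep and 2.67 in WT livers. For Htatip2 it was -2.29, with 0.24 in dHep and 2.52 in WT livers. For Gsta1 it was -3.20, with 1.18 in dHep and 4.38 in WT livers, and this value was the one that most often lost its call, in 10 of 12 fits that left out 1 library. Groups of 3 mice are too small for a test of single outlying libraries.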

How the results depend on the processing

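Of the 410 gene values recomputed under settings other than leaving out 1 library, 380 kept their direction and their side of the threshold, 7 lost a call, 9 gained one and 14 changed sign. Of the 390 that left out 1 library, 351 were unchanged in this sense, 26 lost a call, 3 gained one and 10 changed sign. All 24 sign changes were in 10 results not called with all libraries.

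The WT response had 3 called genes instead of 4 in each of the 6 fits that left out 1 library. The dHSC response had 1 called gene instead of 2 when only its groups were fitted, and 2 to 3 when 1 library was left out. The dHep minus WT response had 1 instead of 3 without the 5 libraries that stand apart, and 0 to 3 when 1 library was left out. The dHep minus dHSC response had 1 instead of 0 by DESeq2, and 0 to 1 when 1 library was left out. Between dHep and WT under TCDD 5 genes instead of 3 were called with the covariate, and 2 to 3 when 1 library was left out. The shares of all genes called under these other settings are not given here. The cause was not tested.

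Nqo1 between dHep and WT vehicle was -0.02 and became 0.0136 with RLE scaling, 0.0070 with only these groups, 0.0129 by DESeq2, 0.20 without the 5 libraries and 0.24 with the covariate. With the copies summed, Gsta1 was 0.51 for dHep minus dHSC, -0.14 in dHep vehicle livers and -0.20 in dHSC vehicle livers against WT vehicle livers. Without the 5 libraries Gsta1 was 1.37 for dHep minus dHSC and -0.57 for dHep against WT in vehicle, and Xdh was 0.18 for dHSC against WT under TCDD. With the covariate these were 0.10 for Gsta1 in dHep minus dHSC and 0.0667 for that Xdh value, and Ugdh for dHep against WT in vehicle was 0.0035.

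Leaving out 1 library gave -0.00029 to 0.96 for Ugdh in dHep, -0.44 to 0.0640 for Xdh in dHSC minus WT, -0.27 to 0.19 for Xdh in dHSC against WT under TCDD, and -0.19 to 0.17 for Nqo1 in dHep against WT vehicle. For dHSC against WT vehicle it gave -0.11 to 0.25 for Nqo1 and -0.0690 to 0.35 for Xdh. With mouse numbers 1 to 6, 7 to 12 and 13 to 18 as a block, a fit chosen after seeing the data, Ugdh was also called between dHep and WT under TCDD (-1.60, edgeR, adjusted p = 0.0390), which makes 4 genes instead of 3. The block changed no other call of the 5 genes in the 10 comparisons. The share of all genes called with it is not given here. The labels do not say whether these runs mark a shared batch or day.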

Other observations

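In dHep TCDD livers, replicate 10 had the highest level of its group for Nqo1 (26.4 CPM), Htatip2 (74.2 CPM), Ugdh (375 CPM) and Xdh (186 CPM). It was also the highest for the Gsta copies Gm10639 (1.95 CPM, against 0.519 and 0.408 in replicates 4 and 16) and Gsta2 (148 CPM, against 94.99 and 90.2 in those replicates). Gsta1 had 6.15 CPM there, between the other libraries of its group.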
